A study of Mus musculus with 6 samples.

Results

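Amino acid transporters carry amino acids across the plasma membrane, and 9 of their genes were followed here: *Slc3a2*, *Slc7a1*, *Slc7a5*, *Slc7a6*, *Slc38a1*, *Slc38a2*, *Slc1a4*, *Slc1a5* and *Slc6a9*. They were taken by symbol, with earlier results of these data known, and matched to Ensembl gene identifiers through the GENCODE M21 annotation. Of the 9 genes, 8 were measured among the 14548 genes of the expression tables, and all 8 were among the 10837 genes tested. *Slc7a5*, which encodes the light chain LAT1, was not analysed here. The 8 genes were compared between 3 MSTN-KO and 3 wild-type (WT) RNA-seq libraries of C2C12, an established mouse myoblast line. The question was how transporter expression differed once *Mstn*, the gene for the secreted muscle growth inhibitor myostatin, had been disrupted.

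Both groups were cultured myoblasts, labelled as skeletal muscle, with no added treatment stated. In the MSTN-KO group the third exon of *Mstn* had been targeted by CRISPR/Cas9 in C2C12 cells, and its libraries came from a single edited line named C11, so an effect of the knockout and a property of that line cannot be told apart. The labels write the strain as C11 for the WT libraries as well, and the genotype field separates the groups. No source states that replicates were separate cultures, so the p-values measure the spread between libraries, which may be technical.

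Most members belong to a few families with known division of labour. *Slc3a2* encodes the CD98 heavy chain, which brings light chains such as those of *Slc7a5* and *Slc7a6* to the cell surface, where they exchange large neutral or cationic amino acids. *Slc38a1* and *Slc38a2* encode sodium-coupled carriers of small neutral amino acids and glutamine, and *Slc1a4* and *Slc1a5* encode exchangers of alanine, serine, cysteine and, for *Slc1a5*, glutamine. In many cells a shortage of amino acids raises the translation of the transcription factor ATF4, which binds C/EBP-ATF response elements at several transporter genes.

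Levels are FPKM, that is, sequenced fragments scaled by the exon length of the gene and by the mapped total of the library. Their FPKM summed to between 723705 and 764524 in WT and between 856314 and 999579 in MSTN-KO, with the highest sum in MSTN-KO replicate 3. The number of fragments behind the values is unknown. *Mstn* itself lay at or below 0.059 FPKM in every library of both groups, too low to check the labels. Of 5 tested myoblast markers 3 were called lower in MSTN-KO (*Chrna1*, *Des* and *Myod1*), against 8.96% of all tested genes. *Vcam1* (-0.27, limma adjusted p = 0.199) and *Myf5* (0.08, limma adjusted p = 0.784) were not called. The 5 markers summed to 1040 to 1370 FPKM in WT and 574 to 700 FPKM in MSTN-KO, with *Myod1* at 145 ± 21 FPKM in WT and 96.1 ± 6.69 FPKM in MSTN-KO (mean ± SD, n = 3). All 15 tested genes of muscle differentiation were called lower in MSTN-KO, against the same 8.96%. Their summed level was 1200, 1260 and 378 FPKM in WT replicates 1, 2 and 3 against 60.9 to 106 FPKM in MSTN-KO. WT replicate 3 therefore stood apart from the other WT libraries in these genes. Endothelial markers were all below 0.1 FPKM in every library, and the summed leukocyte markers were between 0.793 and 2.39 FPKM. Summed adipocyte markers were 0.147 to 0.324 FPKM in WT and 0.919 to 1.76 FPKM in MSTN-KO, with *Plin1* under 0.1 FPKM and *Fabp4* called higher (0.83, adjusted p = 0.00924). *Fabp4* reached the 1 FPKM needed for testing only in MSTN-KO libraries. Summed epithelial markers were 57.0 to 79.5 FPKM in WT and 60.2 to 81.2 FPKM in MSTN-KO, nearly all of it *Krt19*. The part of these markers in the transporter values was not tested.

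Fewer expressing cells and less RNA per cell cannot be told apart in these bulk libraries. Differences are MSTN-KO minus WT on the log2(FPKM + 1) scale, which understates the change of genes near or below 1 FPKM, with their standard error (SE), 95% interval and the Benjamini-Hochberg adjusted p of limma over the 10837 genes. A gene was called when that adjusted p was under 0.05. By this rule 952 genes were higher in MSTN-KO, 8.78% of those tested, and 971 were lower, 8.96%. Of the 8 transporter genes, 2 were called lower (*Slc38a1* and *Slc7a1*) and 0 were called higher by limma. At an unadjusted p under 0.05, 3 of the 8 passed, *Slc38a1* and *Slc7a1* lower and *Slc6a9* higher, where 16.2% of all tested genes passed lower and 16.3% higher. By the criteria named in the study, an unadjusted p under 0.05 with a log2 change above 1 or below -1, 380 genes passed (3.51%) and 0 of the 8 transporter genes did. The criteria were applied here to limma on log2(FPKM + 1), while the study used iDEP, so these are not the counts it reported. The 380 genes were 131 higher and 249 lower, against 254 and 500 with a pseudocount of 0.1 and 92 and 510 on scaling to a sum of 1000000, and 0 of the 8 passed there too. The median difference of the 8 genes was 0.11, against 0.00 over all tested genes. Differences above 0 were found for 6 of the 8 genes and for 5408 of the 10837 tested genes. *Slc7a6* (0.005) and *Slc38a2* (0.011) were only just above 0. On scaling to a sum of 1000000, which moved the median of all genes by -0.26, only *Slc1a4* (0.02) and *Slc6a9* (0.15) stayed above 0.

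**Figure D1:**
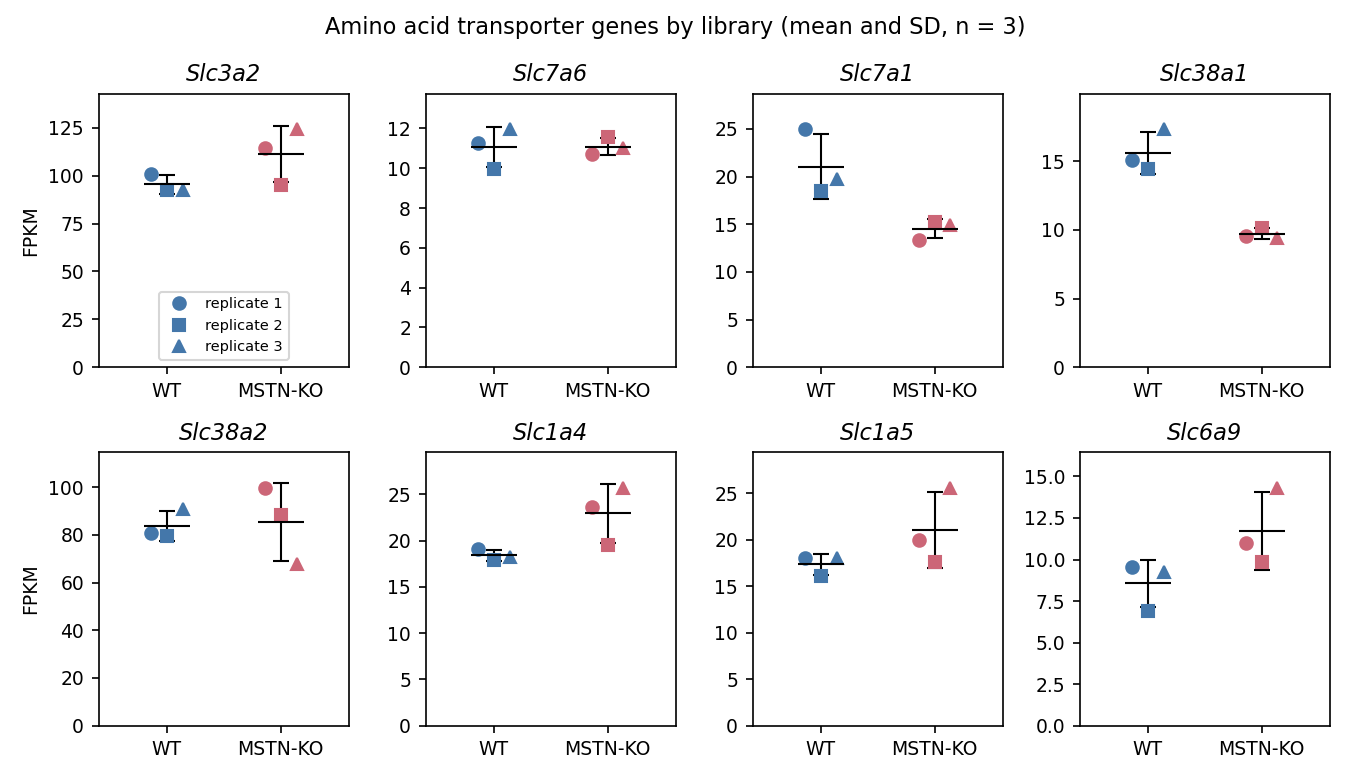
FPKM of each of the 8 transporter genes in each library, with WT and MSTN-KO side by side, one panel per gene with its own axis from 0, a symbol for each library by replicate number, and black bars for the mean and SD of 3 libraries. *Slc38a1* and *Slc7a1* show 3 MSTN-KO points below all WT points, and *Slc1a4* and *Slc6a9* show the opposite order.

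Promoter windows matched 6 of the 8 genes (all but *Slc38a1* and *Slc1a5*), 10 windows in all, from 250 bases before to 50 bases after an annotated start (RefSeq, GRCm38.p6). The core of the C/EBP-ATF response element, searched as TGATGNAA or its reverse complement TTNCATCA, occurred in 1 of the 10 windows and in 1304 of all 32851 windows (3.97%). The E-box CACGTG, which reads the same on both strands, occurred in 0 of the 10 windows and in 7.15% of all windows. The stretches from 100 bases before to 10 bases after the start are shown for *Slc1a4*, the gene with the match, for *Slc7a1*, which was called lower, and for *Slc3a2*, the shared heavy chain. Each is written 5′ to 3′ on the minus strand, and capitals mark the response element letters.
Slc1a4, chr11:20332704-20332813: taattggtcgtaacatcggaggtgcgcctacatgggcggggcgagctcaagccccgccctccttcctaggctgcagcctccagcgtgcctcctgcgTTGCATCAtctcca
Slc7a1, chr5:148399895-148400004: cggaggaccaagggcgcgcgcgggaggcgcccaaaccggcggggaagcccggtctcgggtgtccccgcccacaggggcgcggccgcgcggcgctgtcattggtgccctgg
Slc3a2, chr19:8713888-8713997: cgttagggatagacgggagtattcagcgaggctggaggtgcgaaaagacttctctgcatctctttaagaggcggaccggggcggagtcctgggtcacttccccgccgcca
In *Slc1a4* the letters began 4 bases before the start and ran across it. A match is a description of the sequence only, and a window without one shows only that these letters are not in it.

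The genes for the CD98 heavy chain and its light chain y+LAT2 did not differ beyond the spread of the libraries. *Slc3a2* (ENSMUSG00000010095), on the minus strand of chromosome 19 from 8706882 to 8723369 in GRCm38, measured 101, 92.6 and 92.7 FPKM in WT and 115, 95.4 and 124 FPKM in MSTN-KO. Its means were 95.4 ± 4.74 and 111 ± 14.7 FPKM, and MSTN-KO replicate 2 fell inside the WT range while the other MSTN-KO libraries lay above it. The difference was 0.21 (SE 0.13, 95% interval -0.07 to 0.49, adjusted p = 0.272), and it was -0.07 when every library was scaled to a sum of 1000000, a scaling that moved the median of all genes by -0.26. *Slc7a6* (ENSMUSG00000031904), on the plus strand of chromosome 8 from 106168857 to 106198706, encodes a light chain that exchanges cationic for neutral amino acids. It measured 11.3, 9.95 and 12.0 FPKM in WT and 10.7, 11.5 and 11.0 FPKM in MSTN-KO. The MSTN-KO values all lay within the WT range, and the difference was 0.00 (SE 0.14, 95% interval -0.29 to 0.30, adjusted p = 0.982). Within each library the level of *Slc7a6* was 0.116 ± 0.0114 of that of *Slc3a2* in WT and 0.101 ± 0.0176 in MSTN-KO (exact two-sided permutation test, p = 0.3, n = 3 per group).

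*Slc7a1* was lower in MSTN-KO. The gene (ENSMUSG00000041313, minus strand of chromosome 5, 148327410 to 148399904) encodes CAT1, a main carrier for arginine and lysine uptake. It measured 25.0, 18.5 and 19.7 FPKM in WT and 13.4, 15.2 and 14.9 FPKM in MSTN-KO. Every MSTN-KO library lay below every WT library, and WT replicate 1 was the highest. The mean fell from 21.04 ± 3.45 to 14.5 ± 0.985 FPKM, a difference of -0.50 (SE 0.15, 95% interval -0.81 to -0.19, adjusted p = 0.0309). The call did not hold for most reduced sets of libraries. It was lost without WT replicate 1 (-0.37, adjusted p = 0.0881), WT replicate 2 (-0.58, adjusted p = 0.0535), WT replicate 3 (-0.54, adjusted p = 0.0503), MSTN-KO replicate 1 (-0.44, adjusted p = 0.123) or MSTN-KO replicate 3 (-0.52, adjusted p = 0.0624). It remained without MSTN-KO replicate 2 (-0.53, adjusted p = 0.036). With no filter on low values the adjusted p was 0.059, and on scaling to a sum of 1000000 the difference was -0.78 (adjusted p = 0.00519).

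The system A genes parted in these libraries. *Slc38a1* (ENSMUSG00000023169, minus strand of chromosome 15, 96571418 to 96642913) encodes SNAT1 and measured 15.1, 14.4 and 17.3 FPKM in WT against 9.52, 10.2 and 9.43 FPKM in MSTN-KO. The groups did not overlap, and the 3 MSTN-KO libraries lay close together. The mean fell from 15.6 ± 1.52 to 9.70 ± 0.400 FPKM, a difference of -0.63 (SE 0.14, 95% interval -0.92 to -0.34, adjusted p = 0.0067), the largest in size among the 8 genes. This call held under all other settings and with any single library left out, with differences from -0.91 to -0.55 and adjusted p from 0.00221 to 0.0314. Without WT replicate 3, the library with the low differentiation genes, the difference was -0.56 (adjusted p = 0.0314).

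*Slc38a2* (ENSMUSG00000022462, minus strand of chromosome 15, 96687392 to 96699730) encodes SNAT2, the carrier that amino acid shortage is known to raise. It measured 80.9, 79.5 and 90.8 FPKM in WT and 99.8, 88.5 and 67.7 FPKM in MSTN-KO. MSTN-KO replicate 1 lay above all WT libraries and replicate 3 below them, so the groups overlapped. The means were 83.7 ± 6.15 and 85.3 ± 16.2 FPKM, and the difference was 0.01 (SE 0.15, 95% interval -0.31 to 0.33, adjusted p = 0.968). *Slc38a1* lay at 0.186, 0.182 and 0.191 of the *Slc38a2* level in WT libraries 1, 2 and 3 and at 0.0955, 0.115 and 0.139 in the MSTN-KO libraries. The ratio was lower in every MSTN-KO library, by 0.69 on the log2 scale (-0.69, exact two-sided permutation test, p = 0.1, the smallest that 3 against 3 allows).

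The system A genes lie side by side, 44478 bases apart. Of the 7 tested genes within 1 Mb of them, the neighbours on both sides gave differences of -0.22 (*Ano6*), -0.41 (*Arid2*), -0.11 (*Scaf11*), -0.62 (*Amigo2*, adjusted p = 0.0216) and 0.20 (*Rpap3*). The median over the 453 tested genes of chromosome 15 was 0.11. On chromosome 5, which holds *Slc7a1*, the median over 681 genes was -0.06.

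The exchangers of the ASC family were both higher on average in MSTN-KO, without passing the test. *Slc1a4* (ENSMUSG00000020142, minus strand of chromosome 11, 20302180 to 20332713) encodes ASCT1 and measured 19.1, 17.9 and 18.3 FPKM in WT against 23.6, 19.5 and 25.7 FPKM in MSTN-KO. All MSTN-KO libraries were above the WT libraries, replicate 2 by the smallest margin. The difference was 0.29 (SE 0.14, 95% interval -0.002 to 0.59, adjusted p = 0.156), and 0.02 on scaling to a sum of 1000000. *Slc1a5* (ENSMUSG00000001918, plus strand of chromosome 7, 16781340 to 16798274) encodes ASCT2 and measured 18.0, 16.1 and 18.0 FPKM in WT against 19.98, 17.7 and 25.6 FPKM in MSTN-KO. MSTN-KO replicate 2 fell within the WT range. The difference was 0.25 (SE 0.15, 95% interval -0.07 to 0.58, adjusted p = 0.264), and -0.02 on the same scaling. The ratio of *Slc1a4* to *Slc1a5* was 1.06 ± 0.0481 in WT and 1.10 ± 0.0884 in MSTN-KO (exact two-sided permutation test, p = 0.7, n = 3 per group).

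*Slc6a9* (ENSMUSG00000028542, plus strand of chromosome 4, 117834506 to 117875198) encodes GlyT1, a sodium- and chloride-coupled carrier of glycine. It measured 9.52, 6.92 and 9.22 FPKM in WT and 11.0, 9.83 and 14.3 FPKM in MSTN-KO. The groups did not overlap, but MSTN-KO replicate 2 lay just above the highest WT library. The difference was 0.41 (SE 0.17, 95% interval 0.04 to 0.78, unadjusted p = 0.0327, adjusted p = 0.116), and 0.15 on scaling to a sum of 1000000. The gene overlaps *Ccdc24* on the opposite strand, and 26.3% of its 50-base words occur in another gene, most of them in *Ccdc24*. Whether the counting used strand is not stated, so reads of these genes may not have been separated and the value of *Slc6a9* is uncertain. *Ccdc24* measured 35.6 ± 6.004 FPKM in WT and 39.4 ± 2.13 FPKM in MSTN-KO (0.15, adjusted p = 0.476).

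Groups without overlap were found for 4 of the 8 genes, 2 higher (*Slc1a4* and *Slc6a9*) and 2 lower (*Slc7a1* and *Slc38a1*). Over all tested genes 19.3% lay wholly higher and 18.1% wholly lower in MSTN-KO, so 2 of 8 in each direction is close to the background. After scaling to a sum of 1000000, *Slc1a4* and *Slc6a9* overlapped between the groups, while *Slc7a1*, *Slc38a1* and *Slc7a6* were lower without overlap. The share of all tested genes without overlap was not computed on that scaling, so these have no background. The scaling moved the median of all genes by -0.26, and *Slc7a6* differed by -0.26 there.

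**Figure D2:**
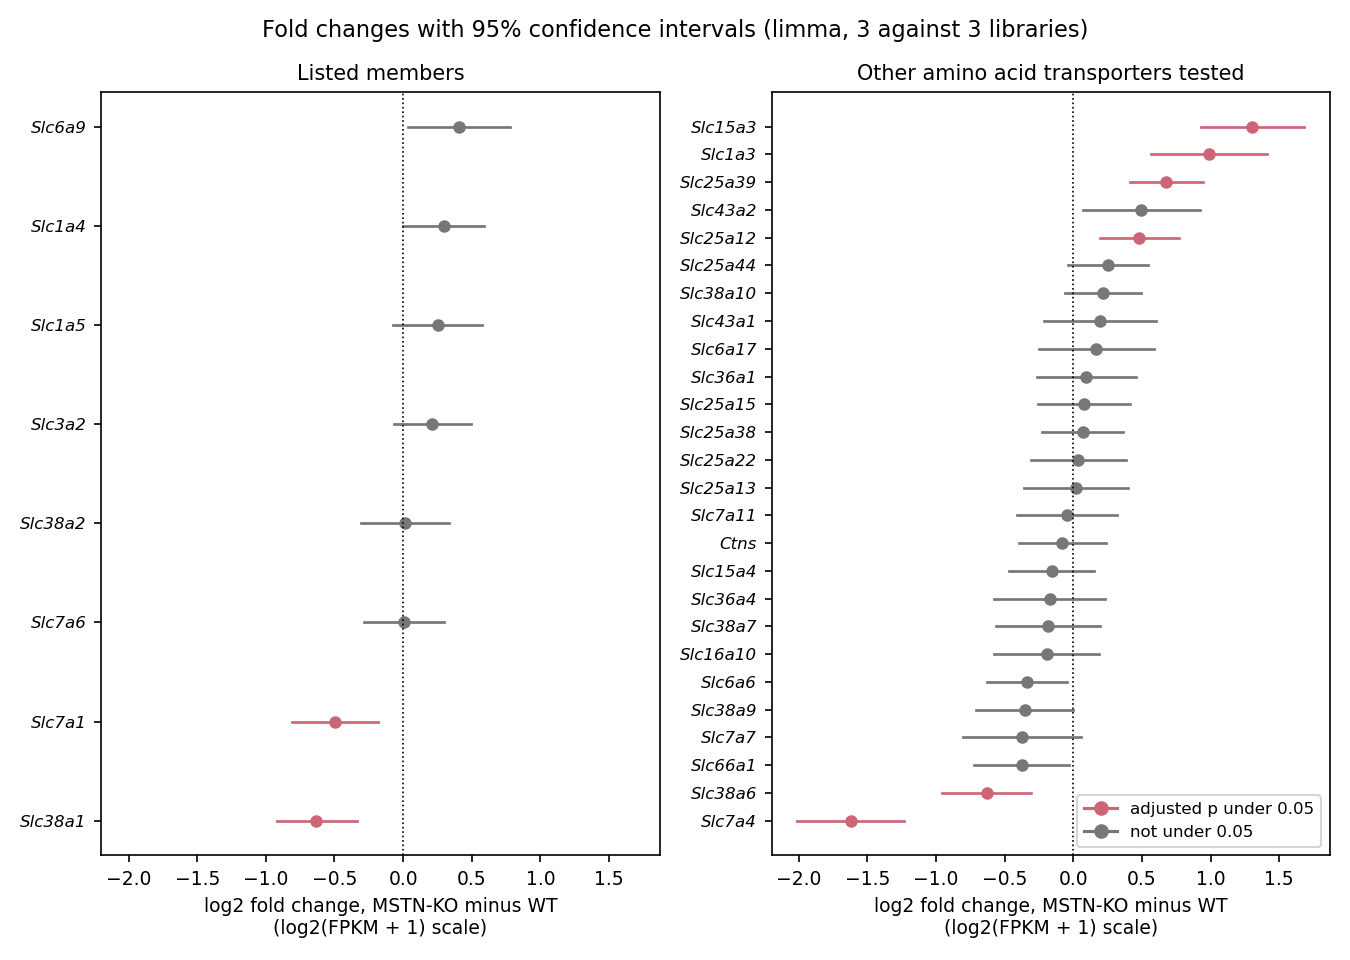
Difference in log2(FPKM + 1), MSTN-KO minus WT, for the 8 transporter genes on the left and the tested genes of the other transporter lists on the right, with points for the estimate, bars for its 95% interval from limma over 6 libraries, and red for an adjusted p under 0.05. On the left the intervals of *Slc38a1* and *Slc7a1* lie wholly below 0, that of *Slc6a9* wholly above 0, and the other 5 reach 0. On the right *Slc7a4* at -1.62 and *Slc15a3* at 1.31 mark the ends, each having reached 1 FPKM in a single group only.

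By level, FPKM being per length, *Slc3a2* and *Slc38a2* stood far above the other 6 genes in both groups, at the percentiles 90.6 and 89.4 of all tested genes in WT. The WT order was *Slc3a2*, *Slc38a2*, *Slc7a1*, *Slc1a4*, *Slc1a5*, *Slc38a1*, *Slc7a6* and *Slc6a9*. The library ranges of *Slc7a1*, *Slc1a4*, *Slc1a5* and *Slc38a1* overlapped each with the next in that order, so these neighbours were not separated by their spread. In MSTN-KO the order was *Slc3a2*, *Slc38a2*, *Slc1a4*, *Slc1a5*, *Slc7a1*, *Slc6a9*, *Slc7a6* and *Slc38a1*. There *Slc3a2* overlapped with *Slc38a2*, *Slc1a4* with *Slc1a5*, *Slc7a1* with *Slc6a9*, and *Slc6a9* with *Slc7a6*. *Slc7a1* moved from the third place to the fifth and *Slc38a1* from the sixth to the last. The level of *Slc7a1* was 0.2198 ± 0.0248 of that of *Slc3a2* in WT and 0.132 ± 0.0237 in MSTN-KO, with no overlap (-0.74 on the log2 scale, exact two-sided permutation test, p = 0.1). Against *Slc7a6* it differed by -0.53 on the log2 scale (exact two-sided permutation test, p = 0.1). These 5 ratios were chosen after the values were seen, and none can pass 0.05 with 3 libraries in a group. Summed over the 8 genes, the level was 256 to 280 FPKM in WT and 268 to 302 FPKM in MSTN-KO.

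The MSTN-KO libraries did not move alike. Replicate 3, the library with the highest FPKM sum, was the highest MSTN-KO library for 4 of the 8 genes, *Slc3a2*, *Slc1a4*, *Slc1a5* and *Slc6a9*, and over all tested genes for 43.9%. Replicate 3 was also the lowest of the group for *Slc38a2*. With libraries scaled to a sum of 1000000, replicate 3 was the highest only for *Slc1a5* and *Slc6a9*. Replicate 2 was the lowest MSTN-KO library for 4 of the 8 genes, against 39.2% of all tested genes.

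The genes called lower are those with the longest exons of the 8, 17236 bases for *Slc38a1* and 11530 bases for *Slc7a1*. Across 10784 genes, which are not independent replicates, the difference had a Spearman correlation of -0.225 with exon length and 0.298 with GC content. After a smooth correction of each library for both, these correlations were -0.047 and 0.064. *Slc38a1* then differed by -0.55 (adjusted p = 0.0119) and *Slc7a1* by -0.48 (adjusted p = 0.0148). The part of exon length and GC content in these differences was not tested. No 50-base word was shared between members. *Slc38a1* shared 4.23% of its words with other genes, *Slc3a2* 3.51% and *Slc7a1* 0.147%.

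**Figure D3:**
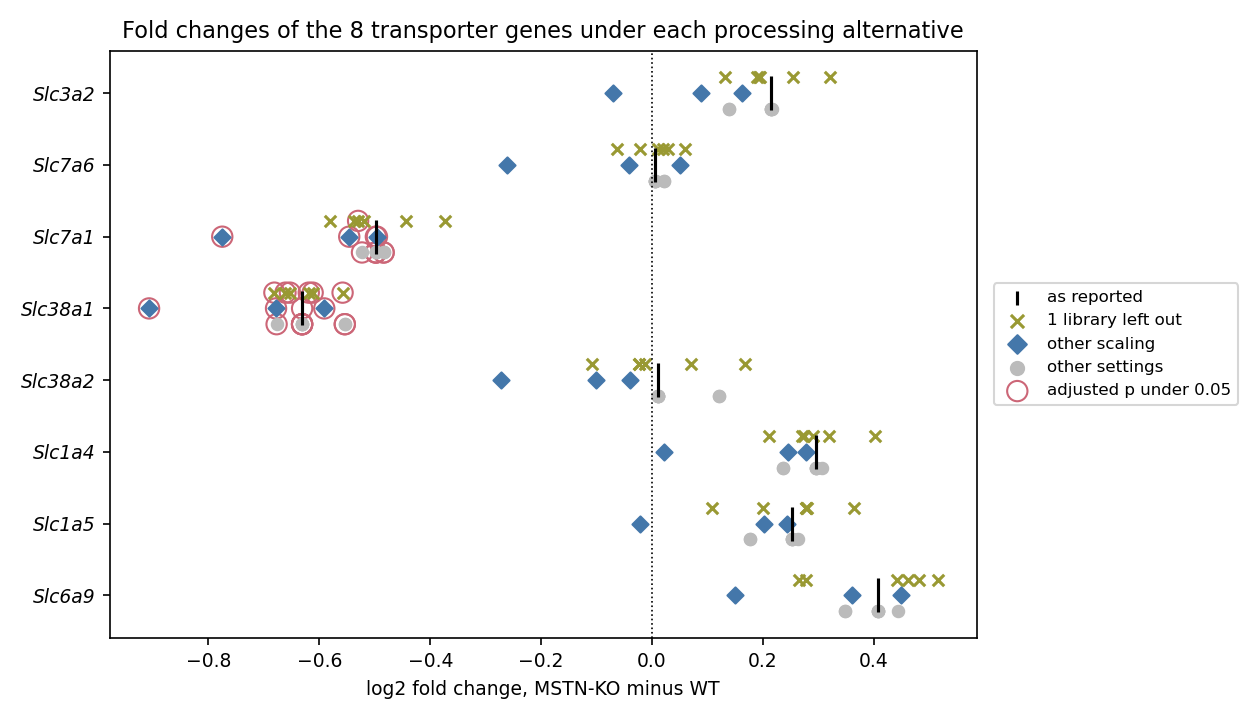
Difference on the log2 scale, MSTN-KO minus WT, for the 8 transporter genes, with a black bar for the value as reported, crosses for 1 library left out, diamonds for another scaling, grey points for other settings and red rings for an adjusted p under 0.05. *Slc38a1* and *Slc7a1* are below 0 throughout, and *Slc3a2*, *Slc7a6*, *Slc38a2* and *Slc1a5* cross 0.

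Among all tested genes 8.78% were called higher and 8.96% lower, the background for the other listed transporters. The other light chains of CD98 and their relatives gave 2 tested genes, both uncalled, the cystine exchanger *Slc7a11* (2.24 ± 0.412 FPKM in WT and 2.13 ± 0.304 in MSTN-KO) and *Slc7a7* (0.739 ± 0.258 and 0.348 ± 0.25). Of 29 other plasma membrane transporters listed, 19 were measured and 8 tested. Of the 8 tested plasma membrane transporters, 1 was called higher (12.5%) and 2 lower (25.0%). *Slc7a4*, a relative of the cationic carriers, fell from 2.16 ± 0.543 to 0.0165 ± 0.0144 FPKM (-1.62, adjusted p = 5.86e-05), and *Slc38a6*, of the same family as *Slc38a1*, fell from 17.2 ± 1.77 to 10.8 ± 1.72 FPKM (-0.63, adjusted p = 0.0125), a call lost without WT replicate 2. The gene called higher, chosen for naming after its values were seen, was the glutamate carrier *Slc1a3*, which rose from 0.133 ± 0.134 to 1.27 ± 0.465 FPKM (0.99, adjusted p = 0.0043). *Slc1a3* passed the filter of 1 FPKM only through MSTN-KO libraries and *Slc7a4* only through WT libraries, which limits what their calls and these shares show. With a filter on a mean of at least 1 FPKM, 0 of these transporters were called higher.

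Among the 16 tested of 22 listed transporters of organelles such as lysosomes and mitochondria, 3 were called higher (18.8%) and 0 lower. The shares over all tested genes were 8.78% and 8.96%. *Slc25a39*, of the mitochondrial carrier family, rose from 148 ± 8.59 to 237.7 ± 20.8 FPKM (0.68, adjusted p = 0.00242), and the lysosomal histidine and peptide carrier *Slc15a3* rose from 0.223 ± 0.0343 to 2.05 ± 0.475 FPKM (1.31, adjusted p = 0.00026). *Slc15a3* passed the filter of 1 FPKM only through MSTN-KO libraries. The mitochondrial aspartate-glutamate carrier *Slc25a12* rose from 10.8 ± 0.716 to 15.5 ± 1.14 FPKM (0.48, adjusted p = 0.0256). This last call was lost on scaling to a sum of 1000000 (0.22, adjusted p = 0.212) and without WT replicate 2, WT replicate 3, MSTN-KO replicate 1 or MSTN-KO replicate 3. On that scaling the list had 2 genes called higher and 2 lower, and 1 was called lower with no filter on low values or with the length and GC correction.

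*Atf4*, which encodes the transcription factor of the amino acid response, measured 313, 334 and 333 FPKM in WT and 404, 314 and 414 FPKM in MSTN-KO. MSTN-KO replicate 2 lay within the WT range and the other MSTN-KO libraries above it (0.20, SE 0.14, adjusted p = 0.332). Of 23 tested genes known to respond to amino acid shortage, 5 were called higher (21.7%) and 0 lower. Over all tested genes 8.78% were called higher and 8.96% lower. The median difference of the 23 genes was 0.22. *Ddit4*, an inhibitor of mTORC1 signalling, rose from 44.4 ± 3.67 to 75.9 ± 8.18 FPKM (0.76, adjusted p = 0.00163). *Cth*, which makes cysteine from cystathionine, rose from 2.63 ± 0.619 to 5.23 ± 0.568 FPKM (0.79, adjusted p = 0.00656), and *Sesn2*, a leucine sensor, rose from 10.6 ± 1.49 to 14.9 ± 1.46 FPKM (0.46, adjusted p = 0.0454). The call of *Sesn2* held in 7 of 17 settings and was lost, among others, on scaling to a sum of 1000000 (0.20, adjusted p = 0.292), while those of *Ddit4* and *Cth* held in all 17. The other called genes, named after their values were seen, were *Cebpb* (1.013, adjusted p = 0.0226, groups overlapping) and the proline synthesis gene *Aldh18a1* (0.44, adjusted p = 0.0296), each called in 11 of 17 settings. Among the 18 genes not called were the asparagine synthetase gene *Asns* (0.25, adjusted p = 0.226), *Trib3* (-0.02, adjusted p = 0.953) and *Chac1* (-0.15, adjusted p = 0.543). These too were named after their values were seen. Scaling to a sum of 1000000 turned the calls of this list to 2 higher and 3 lower, and with no filter on low values 3 were higher. The count was also 2 higher without WT replicate 2, WT replicate 3, MSTN-KO replicate 1 or MSTN-KO replicate 3, and 6 without MSTN-KO replicate 2. MSTN-KO replicate 3 was the highest MSTN-KO library for 17 of the 23 genes (73.9%).

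**Figure D4:**
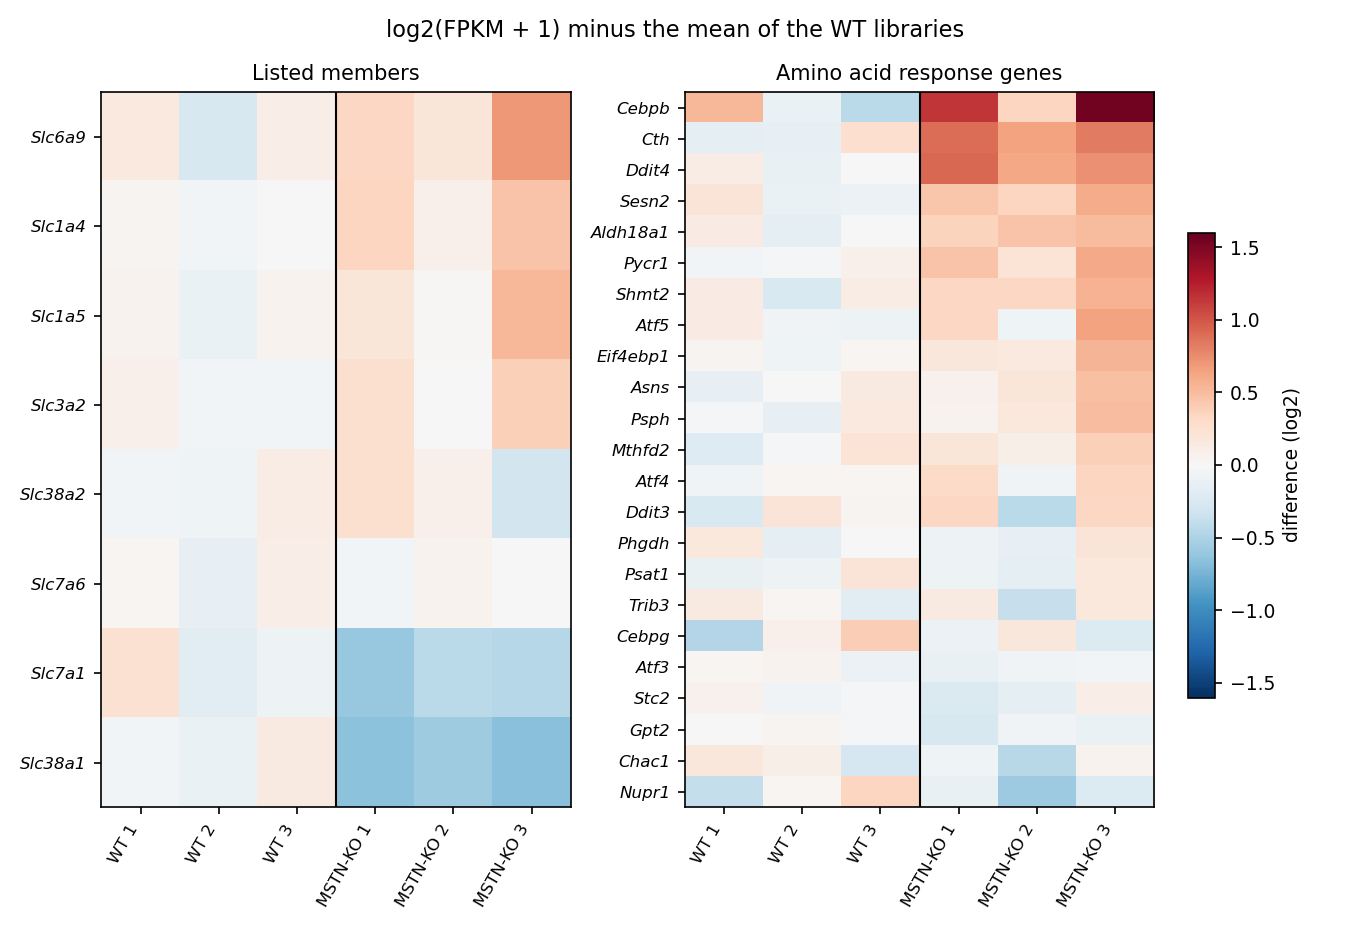
Heat map of log2(FPKM + 1) minus the WT mean in each library, for the 8 transporter genes on the left and the 23 tested amino acid response genes on the right, from blue (lower) to red (higher). *Slc38a1* and *Slc7a1* are blue in all 3 MSTN-KO libraries, and many response genes are most red in MSTN-KO replicate 3.

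Of 20 cytosolic aminoacyl-tRNA synthetases, which charge tRNAs with the amino acids that transporters bring in, 2 were called higher and 0 lower, with a median of 0.20. They were *Kars* (95.1 ± 12.6 to 141.5 ± 15.5 FPKM, 0.57, adjusted p = 0.0126) and *Vars* (96.6 ± 18.7 to 141.3 ± 8.15 FPKM, 0.56, adjusted p = 0.0193). Of 23 tested genes of lysosomal amino acid sensing, 3 were called higher (13.0%, against 8.78% of all tested genes) and 0 lower (against 8.96%), with a median of 0.07. The called genes were *Sesn1* (0.67, adjusted p = 0.0163), *Nprl3* (0.47, adjusted p = 0.0327) and *Lamtor4* (0.46, adjusted p = 0.034). On scaling to a sum of 1000000, each of these lists had 0 genes called higher and 2 called lower. With single libraries left out, the synthetase count ranged from 0 (without WT replicate 2) to 5 (without MSTN-KO replicate 2), and it was 1 without WT replicate 1, MSTN-KO replicate 1 or MSTN-KO replicate 3. The sensing count was 0 without WT replicate 3 or MSTN-KO replicate 1 and with no filter on low values, 1 without WT replicate 1, WT replicate 2 or MSTN-KO replicate 3, and 4 without MSTN-KO replicate 2.

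The genes whose pattern over the 6 libraries was nearest to that of *Slc3a2*, by the mean absolute difference of centred log2(FPKM + 1) values among 10319 genes, were *Foxs1* (0.013), *Bcl7c* (0.016), *Msrb1* (0.017), *Impa2* (0.019) and *Scamp3* (0.022). The genes nearest to *Slc38a1* were *Prkar2a* (0.041), *Klf10* (0.056), *Calml4* (0.057), *Ghitm* (0.059) and *Eaf1* (0.060). The listed transporter genes themselves were left out of this search. None of the genes found belonged to the other transporter lists.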

How the data were processed

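RNA from C2C12 myoblasts was sequenced on an Illumina HiSeq system in 3 WT and 3 MSTN-KO libraries, grouped by the genotype in the labels. The authors deposited 1 FPKM value per Ensembl gene and library; the submitters' processing notes name Bowtie 0.12.2 and the mm8 build, and the annotation, counter and strand setting are not given in the sources used here. Depth is unknown. Ratios of values under 0.1 FPKM between WT replicate 1 and each other library did not gather at a common value, with at most 17 genes in a bin. GENCODE M21 (GRCm38) supplied each gene's symbol, place, exon length and GC share, matching 14445 of 14548 genes (99.3%). These positions are not of the authors' build. The synonyms *Mars* and *Pqlc2* came from RefSeq.

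Genes reaching 1 FPKM in any library were tested on log2(FPKM + 1), pseudocount 1, by limma 3.58.1 (R 4.3.3; empirical Bayes with trend, Benjamini-Hochberg over 10837 genes), after a check on simulated data. There 77.5% of 200 genes changed by 1 on the log2 scale were recovered, with 6 false calls. Smaller changes, such as those of the transporter genes, were not simulated. A gene could pass the filter of 1 FPKM through libraries of a single group. Ratios within libraries used exact permutation tests. mgcv 1.9.3 made the length and GC correction. Python 3.11.15 (numpy 2.4.6, pandas 2.3.3, scipy 1.17.1, matplotlib 3.10.9) did the rest.

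The members and lists were chosen with earlier results of these data known. All members are described. From each list at most 3 called genes were named, namely those of largest difference whose mean reached 1 FPKM and whose groups were apart, and *Atf4* and *Mstn* in any case. Other genes named were added after their values were seen. The 5 genes nearest in pattern were named for *Slc3a2* and for the member with the largest difference. Alternatives changed the pseudocount to 0.1, the filter, the trend, the scaling (quantile, percentile 75 or a sum of 1000000), the length and GC correction, the replicate block and the set of libraries.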

Additional observations from a re-analysis of the deposited data

How the results depend on the processing

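Scaling each library to a sum of 1000000 changed the calls over all genes from 952 higher and 971 lower to 350 higher and 2367 lower, and moved the median of all genes by -0.26. It also turned the difference of *Slc3a2* to -0.07, *Slc7a6* to -0.26, *Slc38a2* to -0.27 and *Slc1a5* to -0.021, none of them called as deposited. Scaling by the percentile 75 gave -0.042 for *Slc7a6* and -0.04 for *Slc38a2*, and quantile normalization gave -0.10 for *Slc38a2*. Without a filter on low values 1 transporter gene was called lower in place of 2, *Slc7a1* missing at -0.50 (adjusted p = 0.059), where more genes were tested. With 1 library left out at a time, 1 to 2 transporter genes were called lower, and over all genes 419 to 1175 were called higher and 611 to 1233 lower. The differences then ranged from 0.13 to 0.32 for *Slc3a2*, -0.063 to 0.06 for *Slc7a6*, -0.58 to -0.37 for *Slc7a1*, -0.68 to -0.56 for *Slc38a1*, -0.11 to 0.17 for *Slc38a2*, 0.21 to 0.40 for *Slc1a4*, 0.11 to 0.37 for *Slc1a5* and 0.27 to 0.52 for *Slc6a9*. No setting called a transporter gene higher or by the criteria named in the study. The cause of these shifts was not tested.

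Same-numbered WT and MSTN-KO libraries did not deviate together (r = -0.015, -0.128 and -0.142 over genes). No library correlated best with its own number, so the numbers were not taken as pairs. With the replicate block, 939 genes were higher and 1001 lower, *Slc38a1* had an adjusted p of 0.00943 and *Slc7a1* of 0.0396. Depth is unknown and 3 libraries in a group limit what can be seen: the upper ends of the 95% intervals of the 6 uncalled genes reach from 0.30 (*Slc7a6*) to 0.78 (*Slc6a9*).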
